A study of Homo sapiens with 9 samples.

Results

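RNA from 59 human genes that build, start and move the DNA replication fork was compared across 9 cultures of FaDu, an established line of squamous carcinoma of the hypopharynx. The genes were taken from the deposited count table by symbol, and all 59 were found among its 58735 genes. The labels give 3 groups of 3 biological replicates: AMIGO2 knockdown combined with CAPN2 overexpression, AMIGO2 knockdown alone, and normal control, with no treatment in any group. AMIGO2 encodes a leucine-rich repeat protein of the cell surface and CAPN2 the large subunit of calpain-2, a calcium-dependent protease. The labels do not give the knockdown reagent, the overexpression vector, the number of clones or the time after transfection. All 9 libraries are cultures of 1 cell line, so every p-value describes the spread between these cultures. Levels are CPM, counts scaled to library size by trimmed mean of M values (TMM), and fold changes are on the log2 scale with their standard error (SE).

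A cell copies its genome from many origins. The origin recognition complex binds DNA, CDC6 and CDT1 join it and load the MCM helicase in G1 phase, and kinases then turn loaded helicases into moving forks by adding CDC45 and GINS. Behind the helicase, polymerases held by the PCNA ring copy each strand, nucleases and a ligase join the lagging-strand pieces, and chromatin is rebuilt on the new DNA. Many of these genes are transcribed mainly around the entry into S phase, under E2F transcription factors, and their messenger RNA is low in cells that do not divide.

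The targeted genes did not follow the labels closely. AMIGO2 had 42.8, 35.3 and 38.8 CPM in the libraries labelled KD plus CAPN2, 24.5, 31.3 and 27.3 CPM in those labelled KD, and 29.5, 26.1 and 27.2 CPM in control. The libraries labelled KD and the control libraries overlapped, and the log2 fold change between them was 0.006 ± 0.115, with edgeR's adjusted p at 0.971. AMIGO2 was higher under the label KD plus CAPN2, by 0.49 ± 0.114 over the label KD (edgeR's adjusted p = 0.0014) and 0.50 ± 0.114 over control (adjusted p = 0.00106). CAPN2 had 498, 498 and 500.2 CPM in the libraries labelled KD plus CAPN2, 395, 424 and 435 CPM in those labelled KD, and 447, 474 and 466 CPM in control. It was 1.19-fold higher under the label KD plus CAPN2 than under the label KD (log2 0.26 ± 0.079, edgeR's adjusted p = 0.012). CAPN2 did not pass against control under the label KD plus CAPN2 (log2 0.11 ± 0.079, edgeR's adjusted p = 0.254) or under the label KD (log2 -0.15 ± 0.079, adjusted p = 0.166). Groups are therefore named by their labels throughout, as labelled KD plus CAPN2, labelled KD and control. Libraries held 15158607 to 19737562 counts. All 9 squamous epithelium markers looked up were at 1 CPM or more in every group, with summed levels of 4664 to 5255 CPM in the libraries labelled KD plus CAPN2, 4174 to 5259 CPM in those labelled KD and 7921 to 8416 CPM in control. Between the first 2 groups 4 of the 9 were higher and 4 lower at edgeR's adjusted p under 0.05, against 23.7% and 25.6% of all genes tested. Between the libraries labelled KD and control 1 was higher and 6 lower, against 16% and 18.5%. Of markers of other cell types, COL1A1 alone of 6 fibroblast genes and CDH5 and VWF of 5 endothelial genes reached 1 CPM, and LUM and KDR were at 0 in every library. Of 5 blood genes, CD14 averaged over 1 CPM in every group and ITGAM in those labelled KD plus CAPN2 and control, with PTPRC near 0. Summed blood markers lay at 6.97 to 11.2 CPM in the libraries labelled KD plus CAPN2, 19.6 to 25.9 CPM in those labelled KD and 16.4 to 20.9 CPM in control. Summed endothelial markers lay at 16.2 to 16.5 CPM in the libraries labelled KD plus CAPN2, 43.3 to 49.5 CPM in those labelled KD and 17.6 to 22.5 CPM in control, most of it CDH5. VWF averaged 2.61 CPM in the libraries labelled KD plus CAPN2, 2.44 CPM in those labelled KD and 5.67 CPM in control. The part of these shifts in the results that follow was not tested.

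Replication gene RNA was low in the libraries labelled KD plus CAPN2. Summed over the 59 genes it came to 2560 ± 26.1 CPM in the libraries labelled KD plus CAPN2, 5704 ± 254 CPM in those labelled KD and 6520 ± 116 CPM in control (SD, n = 3 each). The first of these sums was 44.9% of the second and 39.3% of the third, and the sum in the libraries labelled KD was 87.5% of that in control. As a share of all counts, the 59 genes held 0.261% to 0.267% in the libraries labelled KD plus CAPN2, 0.563% to 0.583% in those labelled KD and 0.623% to 0.632% in control. In RNA from whole cultures, fewer cells in S phase and less RNA of these genes per cell cannot be told apart.

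Between the libraries labelled KD plus CAPN2 and those labelled KD, 55 of the 59 genes were lower and 0 higher at an adjusted p under 0.05 in edgeR's quasi-likelihood test, with Benjamini-Hochberg adjustment over all 16812 genes tested. In that comparison 49.2% of all genes tested were called, made up of 25.6% of all genes tested as lower and 23.7% as higher. None of the 59 genes was higher at an unadjusted p under 0.05 in edgeR or at an adjusted p under 0.05 in DESeq2. Over the 59 genes the median log2 fold change was -1.18, against 0.01 over all genes tested. Falls of at least 2-fold were called for 36 of the genes, and for 4.9% of all genes tested. For 54 of the genes every library labelled KD plus CAPN2 lay under every library labelled KD, a pattern held by 26.9% of all genes tested. The genes that did not pass were ORC3, ORC4, ORC5 and DBF4, all of which act before the fork moves.

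Against control, the libraries labelled KD plus CAPN2 had 55 of the 59 genes lower and 1 higher, ORC4, where 28.4% of all genes tested were called lower and 27.9% higher. The median was -1.26, against 0.02 over all genes tested, and 40 genes fell at least 2-fold, as did 7.49% of all genes tested. Every library labelled KD plus CAPN2 lay under every control library for 55 of the genes, and for 33.6% of all genes tested. ORC3, RFC1 and DNA2 did not pass.

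The libraries labelled KD differed from control in fewer of the genes: 20 were lower and 3 higher (ORC4, MCM6 and RFC5), where 18.5% of all genes tested were called lower and 16% higher. The median was -0.14, against -0.01 over all genes tested, and RPA1 alone fell at least 2-fold, as 2.34% of all genes tested did. For 26 of the genes all libraries labelled KD lay under all control libraries and for 5 above them, patterns held by 24.1% and 20.5% of all genes tested. The number of lower genes in this last comparison changed to 11 without control replicate 2 and to 13 in a fit to the compared groups alone, and the number of higher genes to 9 without the first library labelled KD and to 0 without control replicate 2. Calls over all genes tested also changed, from 5812 of 16812 in the main fit. They were 4288 of 17410 without control replicate 2 and 5068 of 15922 in the compared groups alone. Without the first library labelled KD they were 6427 of 17359. All 3 comparisons draw on the same 9 libraries and each pair of them shares a group.

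**Figure D1:**
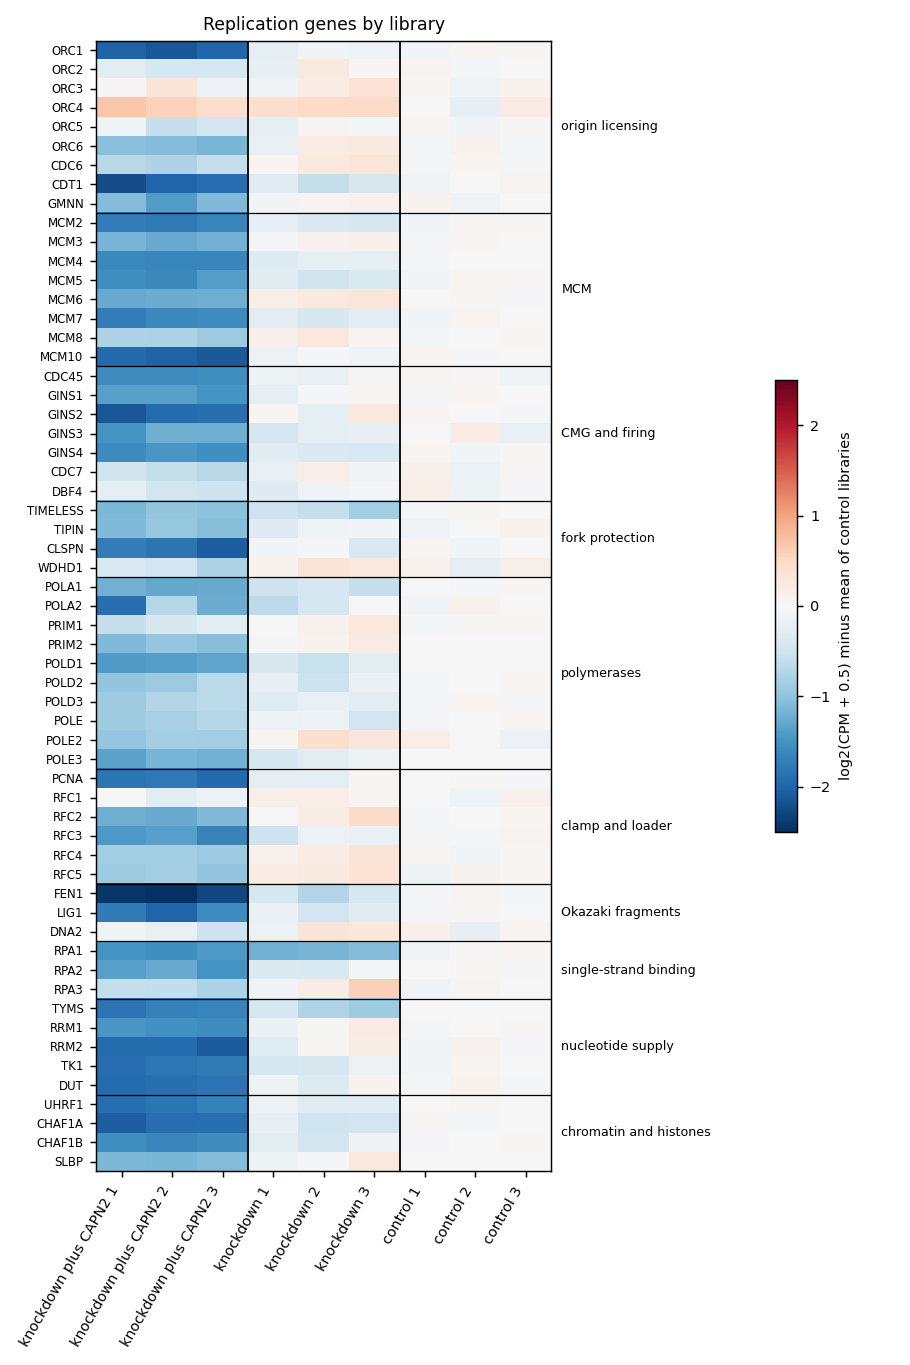
Level of each of the 59 genes (rows, by role) in each of the 9 libraries (columns), as log2(CPM + 0.5) minus the mean of the 3 control libraries. The 3 columns labelled KD plus CAPN2 are blue in nearly every row outside ORC3, ORC4, RFC1 and DNA2. Those labelled KD lie closer to control in most rows, with their largest falls in RPA1, TYMS and TIMELESS.

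**Figure D2:**
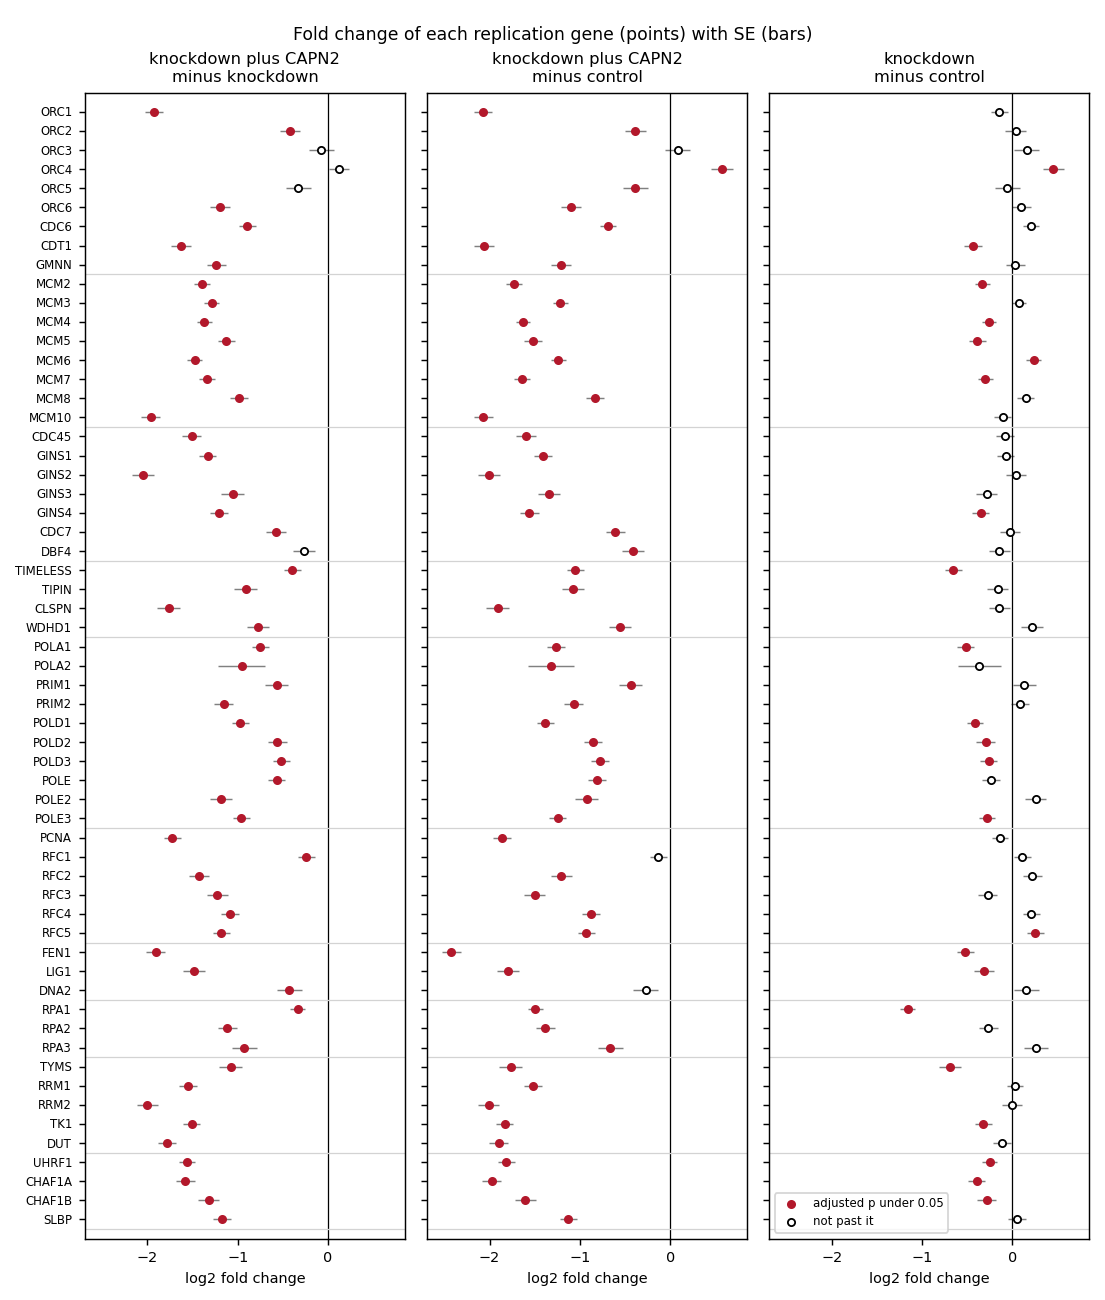
Log2 fold change (x axis) of each gene (y axis, by role) with its SE as a bar, in the 3 comparisons, with filled points at an adjusted p under 0.05. Most points in the left and middle panels lie between -0.5 and -2, and those in the right panel lie around 0.

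**Figure D3:**
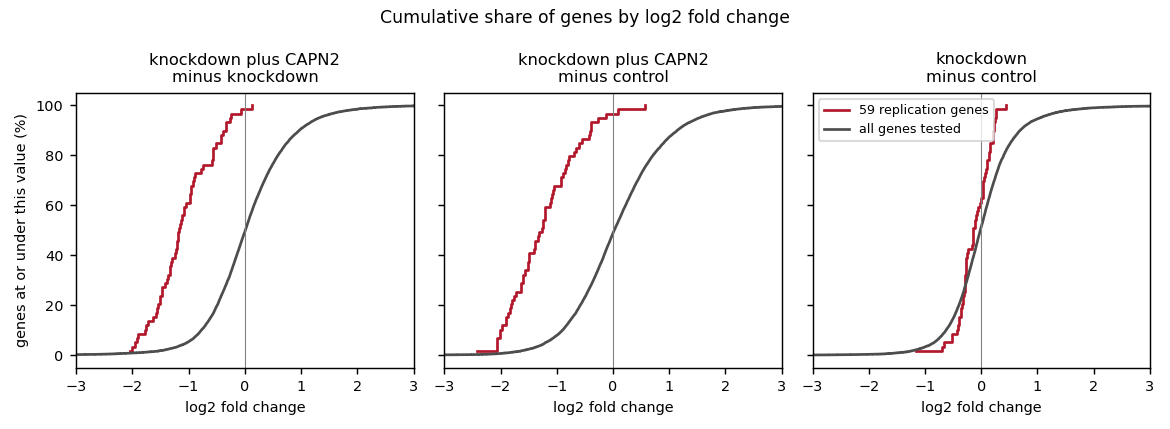
Cumulative share of genes (y axis, percent) by log2 fold change (x axis) for the 59 replication genes and all 16812 genes tested. The curves lie apart in the left and middle panels, where the medians of the 59 genes are -1.18 and -1.26, and close together in the right panel, where it is -0.14.

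Of the 9 origin licensing genes, 6 were lower in the libraries labelled KD plus CAPN2 than in those labelled KD, and the summed level was 51.5% of that in the libraries labelled KD. In this comparison 25.6% of all genes tested were called lower, the share to set beside the count of each role below. ORC1 (ENSG00000085840, GRCh38 chromosome 1, 52372829 to 52404459, minus strand), the subunit of the origin recognition complex whose level rises and falls with the cell cycle, had 19.6, 18.3 and 20.1 CPM in the libraries labelled KD plus CAPN2, 68.3, 77.2 and 75.0 CPM in those labelled KD, and 77.6, 83.7 and 82.5 CPM in control. All 3 libraries labelled KD plus CAPN2 were low, with no overlap with any other library. The fall was 3.80-fold against the libraries labelled KD (log2 -1.93 ± 0.097, edgeR's adjusted p = 1.93e-11) and 4.20-fold against control, while the log2 fold change of the libraries labelled KD against control was -0.14 (adjusted p = 0.23).

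CDT1 (ENSG00000167513, GRCh38 chromosome 16, 88803213 to 88809258, plus strand), which brings the MCM helicase to origins, had 18.2, 21.1 and 22.6 CPM in the libraries labelled KD plus CAPN2, 69.7, 56.6 and 65.2 CPM in those labelled KD, and 81.3, 87.1 and 90.4 CPM in control. Its 3 groups did not overlap, so that control was highest and the libraries labelled KD plus CAPN2 lowest. The log2 fold change was -1.63 ± 0.11 between the libraries labelled KD plus CAPN2 and KD (edgeR's adjusted p = 8.91e-10) and -0.44 ± 0.103 between those labelled KD and control (adjusted p = 0.00288). After correction for GC content and length the second of these did not pass (adjusted p = 0.171, with alternatives between 0.000809 and 0.171). GMNN, geminin, the inhibitor of CDT1, fell 2.36-fold between the libraries labelled KD plus CAPN2 and KD. Per kilobase of deposited gene length, which covers all annotated exons, the level of CDT1 over that of GMNN was 0.727 ± 0.132 in the libraries labelled KD plus CAPN2, 0.948 ± 0.149 in those labelled KD and 1.31 ± 0.137 in control. The first group overlapped the second on that ratio, and no test was run on it. ORC6, the smallest subunit, fell 2.30-fold, CDC6, the loading ATPase, 1.86-fold and ORC2, a core subunit, 1.34-fold in the libraries labelled KD plus CAPN2 against those labelled KD.

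ORC4 (ENSG00000115947, GRCh38 chromosome 2, 147930397 to 148021604, minus strand), a core ATPase-fold subunit, had 34.3, 31.5 and 28.9 CPM in the libraries labelled KD plus CAPN2, 27.9, 29.4 and 29.7 CPM in those labelled KD, and 21.2, 18.2 and 24.4 CPM in control. Control was lowest and did not overlap the others, which overlapped each other. The log2 fold change was 0.12 between the libraries labelled KD plus CAPN2 and KD (95% interval -0.12 to 0.36), 0.57 ± 0.118 between those labelled KD plus CAPN2 and control (edgeR's adjusted p = 0.000398) and 0.45 ± 0.118 between those labelled KD and control (adjusted p = 0.006). The higher level against control did not pass after correction for GC content and length, with 0.11 (adjusted p = 0.312, with alternatives between 2.75e-05 and 0.312) for the libraries labelled KD plus CAPN2 and 0.22 (adjusted p = 0.0675, range 0.00148 to 0.0675) for those labelled KD. The second also did not pass without control replicate 2. ACVR2A and MBD5 share exon bases with ORC4 on the other strand and had 38.7% and 40.0% of its counts, and how strand was treated in counting is not given. ORC3 had 23.9, 29.5 and 21.0 CPM in the libraries labelled KD plus CAPN2, 21.9, 26.6 and 29.9 CPM in those labelled KD and 23.8, 21.6 and 24.9 CPM in control, with overlap of all groups. Its log2 fold change between the libraries labelled KD plus CAPN2 and KD was -0.07, with a 95% interval from -0.36 to 0.21. ORC5 had -0.33 in the same comparison (edgeR's adjusted p = 0.0548) and -0.39 between the libraries labelled KD plus CAPN2 and control (adjusted p = 0.0231), a call lost with upper-quartile factors (log2 -0.28, adjusted p = 0.0855, range 0.00479 to 0.127), without replicate 2 or 3 of the libraries labelled KD plus CAPN2 or without control replicate 1 or 3. Per kilobase, the level of ORC1 over that of ORC4 was 1.74 ± 0.193 in the libraries labelled KD plus CAPN2, 7.15 ± 0.251 in those labelled KD and 10.98 ± 1.81 in control (SD, n = 3 each). ORC6 had the highest level per kilobase of the 6 genes of the complex in the libraries labelled KD plus CAPN2 and in those labelled KD, and ORC1 in control.

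The MCM genes fell together. All 8 were lower in the libraries labelled KD plus CAPN2 than in those labelled KD, with log2 fold changes from -1.96 to -0.98 and a summed level at 39.2%. MCM10 (ENSG00000065328, GRCh38 chromosome 10, 13161554 to 13211104, plus strand), which is needed to switch the loaded helicase on, had 12.2, 11.5 and 10.95 CPM in the libraries labelled KD plus CAPN2, 43.7, 46.6 and 44.9 CPM in those labelled KD, and 50.5, 46.8 and 48.3 CPM in control. The libraries labelled KD plus CAPN2 were far under all others, and the fall against those labelled KD was 3.90-fold (log2 -1.96 ± 0.103, edgeR's adjusted p = 3.17e-11). MCM6, a subunit of the MCM2-7 ring, had 63.4, 64.2 and 65.5 CPM in the libraries labelled KD plus CAPN2, 169, 181 and 188 CPM in those labelled KD, and 153, 155 and 148 CPM in control. Here the libraries labelled KD were the highest and none of the groups overlapped. The log2 fold change was -1.48 ± 0.083 between the libraries labelled KD plus CAPN2 and KD (edgeR's adjusted p = 8.64e-11) and 0.23 ± 0.081 between those labelled KD and control (adjusted p = 0.0306). The second of these did not pass under 6 of the alternatives, namely no filter, the replicate block, the correction for GC content and length, and leaving out any 1 control library, over a range of adjusted p from 0.00894 to 0.125.

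The other ring genes, MCM2, MCM3, MCM4, MCM5 and MCM7, fell 2.62-fold, 2.44-fold, 2.58-fold, 2.19-fold and 2.53-fold in the libraries labelled KD plus CAPN2 against those labelled KD. MCM8, which acts in homologous recombination rather than in the ring, fell 1.98-fold. In the libraries labelled KD against control, MCM2, MCM4, MCM5 and MCM7 were lower, by log2 fold changes of -0.33, -0.26, -0.39 and -0.30, while MCM3, MCM8 and MCM10 did not pass. MCM5 passed under all 13 alternatives. MCM2 and MCM7 did not pass after correction for GC content and length, with log2 fold changes of -0.10 and -0.08. MCM7 also did not pass without the second library labelled KD or control replicate 2, nor MCM4 without a filter, in the compared groups alone, or without control replicate 2 or 3. Levels per kilobase were 34.2 CPM per kilobase for MCM4 and 5.74 for MCM5 in the libraries labelled KD plus CAPN2, 88.4 and 12.6 in those labelled KD, and 106 and 16.4 in control. The length used covers all annotated exons of a gene, 6973 bases for MCM4 and 7338 for MCM5, and can exceed the transcripts expressed. The difference between the 2 genes is therefore not a measured difference in transcript number. MCM4 over MCM6 was 2.19 ± 0.049 in the libraries labelled KD plus CAPN2, 2.03 ± 0.033 in those labelled KD and 2.87 ± 0.0792 in control. That ratio was therefore highest in control, without overlap, and was not tested.

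**Figure D4:**
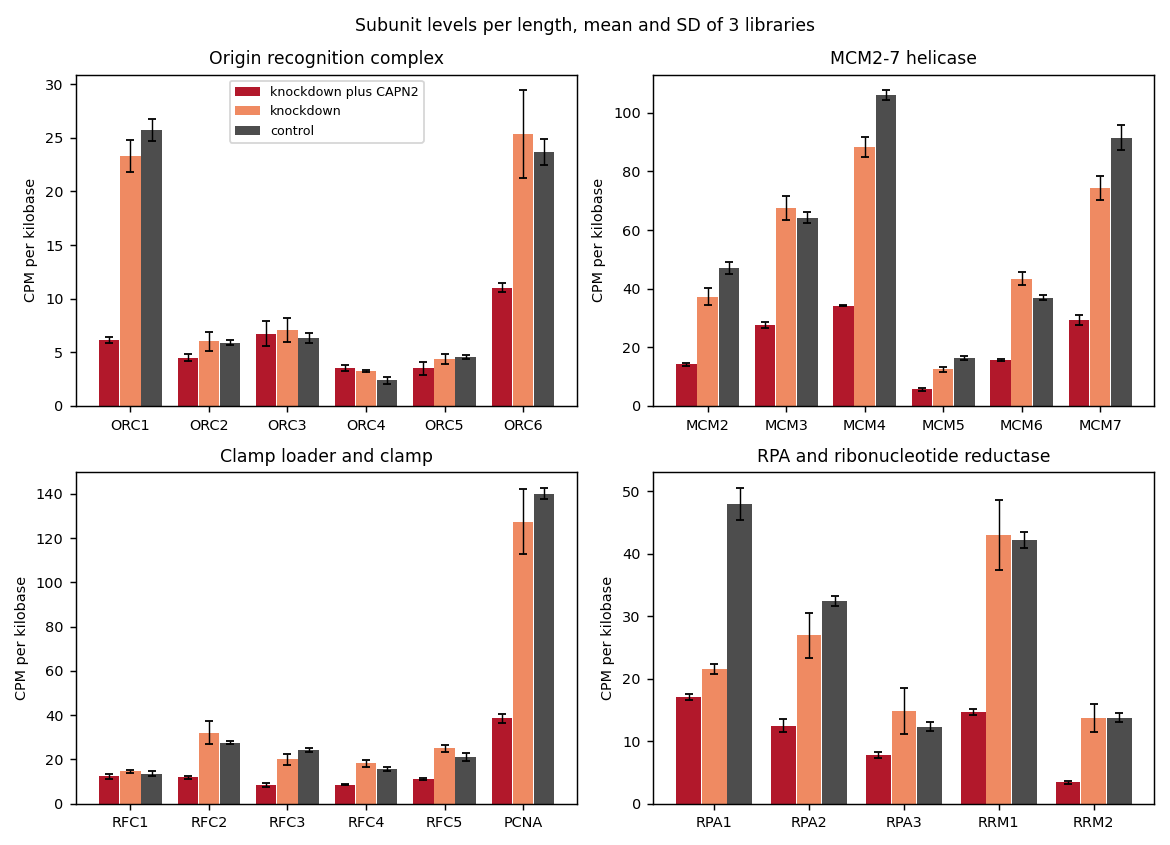
Level per kilobase of deposited gene length (CPM per kilobase, mean with SD of 3 libraries) for the subunits of the origin recognition complex, the MCM2-7 ring, the clamp and its loader, and RPA with ribonucleotide reductase, in the libraries labelled KD plus CAPN2, labelled KD and control. ORC1 and ORC6 stand apart from ORC2 to ORC5 in the fall under the label KD plus CAPN2, RFC1 from the other clamp loader genes, and RPA1 is the gene whose bar labelled KD lies far under that of control.

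Of the 7 genes that turn a loaded helicase into a fork, 6 were lower in the libraries labelled KD plus CAPN2 than in those labelled KD. GINS2 (ENSG00000131153, GRCh38 chromosome 16, 85676198 to 85690073, minus strand), a subunit of the GINS complex that holds CDC45 to the MCM ring, had 14.998, 17.6 and 18.0 CPM in the libraries labelled KD plus CAPN2, 70.0, 58.3 and 81.2 CPM in those labelled KD, and 69.3, 68.3 and 65.7 CPM in control. Values labelled KD spread around those of control, and both lay well above those labelled KD plus CAPN2. Its fall of 4.13-fold against the libraries labelled KD was the largest of the 59 genes (log2 -2.05 ± 0.121, edgeR's adjusted p = 1.6e-10). CDC45 had 13.9, 13.8 and 14.3 CPM in the libraries labelled KD plus CAPN2, 38.8, 37.4 and 43.3 CPM in those labelled KD, and 44.4, 43.0 and 39.2 CPM in control, so that only the libraries labelled KD and control overlapped. It fell 2.85-fold against the libraries labelled KD (log2 -1.51 ± 0.107, edgeR's adjusted p = 1.67e-09). GINS1, GINS3 and GINS4, the remaining subunits, fell 2.52-fold, 2.08-fold and 2.31-fold in the same comparison. GINS4 alone of the 7 was called between the libraries labelled KD and control (log2 -0.35 ± 0.098, edgeR's adjusted p = 0.00856).

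The kinase that fires origins moved less. CDC7, its catalytic subunit, fell 1.495-fold between the libraries labelled KD plus CAPN2 and KD (log2 -0.58 ± 0.11, edgeR's adjusted p = 0.000224). DBF4, the subunit that activates it, had 29.1, 24.7 and 23.8 CPM in the libraries labelled KD plus CAPN2, 27.3, 32.3 and 33.8 CPM in those labelled KD, and 38.7, 31.6 and 33.0 CPM in control. The first library labelled KD plus CAPN2 lay within the range of those labelled KD, and the log2 fold change was -0.27 with a 95% interval from -0.52 to -0.02 (edgeR's adjusted p = 0.0721). Against control it was -0.41 ± 0.12 (adjusted p = 0.00673).

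The 4 genes that guard the fork were all lower in the libraries labelled KD plus CAPN2 than in those labelled KD. CLSPN, claspin, the checkpoint mediator that travels with the fork, had 10.8, 10.1 and 8.505 CPM in the libraries labelled KD plus CAPN2, 35.3, 36.3 and 28.3 CPM in those labelled KD, and 38.0, 35.3 and 37.3 CPM in control. It was low in every library labelled KD plus CAPN2, and fell 3.40-fold against those labelled KD (log2 -1.77 ± 0.127, edgeR's adjusted p = 2.17e-09). TIPIN, which pairs with TIMELESS in the fork protection complex, had 8.95, 10.0 and 9.24 CPM in the libraries labelled KD plus CAPN2, 15.8, 18.4 and 19.0 CPM in those labelled KD, and 18.7, 19.6 and 21.2 CPM in control. No library labelled KD plus CAPN2 overlapped the others, and TIPIN fell 1.88-fold against the libraries labelled KD (log2 -0.91 ± 0.126, edgeR's adjusted p = 7.46e-06).

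TIMELESS followed another order. It had 69.6, 76.0 and 74.2 CPM in the libraries labelled KD plus CAPN2, 106, 99.8 and 83.1 CPM in those labelled KD, and 147, 155 and 153 CPM in control. The 3 groups did not overlap, and the larger step lay between the libraries labelled KD and control. The step on the log2 scale was -0.39 ± 0.096 between the libraries labelled KD plus CAPN2 and KD (edgeR's adjusted p = 0.00208) and -0.65 ± 0.095 between those labelled KD and control (adjusted p = 3.39e-05). WDHD1, which ties polymerase alpha to the helicase, fell 1.71-fold between the libraries labelled KD plus CAPN2 and KD and did not pass between those labelled KD and control (log2 0.22, 95% interval -0.03 to 0.46).

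All 10 polymerase and primase genes were lower in the libraries labelled KD plus CAPN2 than in those labelled KD, by log2 fold changes from -1.18 to -0.52, and the summed level was 60.5%. POLE2, the second subunit of the leading-strand polymerase epsilon, had 12.2, 13.3 and 13.1 CPM in the libraries labelled KD plus CAPN2, 25.6, 32.4 and 29.8 CPM in those labelled KD, and 27.3, 24.3 and 21.9 CPM in control. The libraries labelled KD plus CAPN2 did not overlap the rest, and the fall against those labelled KD was 2.27-fold (log2 -1.18 ± 0.124, edgeR's adjusted p = 2.79e-07). PRIM2, the large primase subunit, had 16.7, 18.4 and 17.1 CPM in the libraries labelled KD plus CAPN2, 35.1, 39.0 and 42.1 CPM in those labelled KD, and 36.3, 36.7 and 36.4 CPM in control. Its fall against the libraries labelled KD was 2.23-fold (log2 -1.16 ± 0.105, edgeR's adjusted p = 4.96e-08). PRIM1, the catalytic primase subunit, fell 1.48-fold, and shares 33 exon bases on the same strand with NACA, which had many times its counts.

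POLA1, the catalytic subunit of polymerase alpha, had 25.2, 23.9 and 24.4 CPM in the libraries labelled KD plus CAPN2, 41.0, 43.7 and 38.8 CPM in those labelled KD, and 59.3, 57.4 and 59.97 CPM in control. The groups were well apart in that order. On the log2 scale the difference was -0.75 ± 0.096 between the libraries labelled KD plus CAPN2 and KD (edgeR's adjusted p = 3.16e-06) and -0.52 ± 0.092 between those labelled KD and control (adjusted p = 0.000279). POLA2, its accessory subunit, had the lowest level per kilobase of the 59 genes in each group, with 1.79, 4.67 and 3.06 CPM in the libraries labelled KD plus CAPN2, 4.83, 5.77 and 7.97 CPM in those labelled KD and 7.58, 8.43 and 7.87 CPM in control. Its SE of 0.257 on a log2 fold change of -0.96 was the widest of the 59 in that comparison, where edgeR's adjusted p was 0.00449. POLD1, POLD2 and POLD3, the catalytic and accessory subunits of the lagging-strand polymerase delta, fell 1.96-fold, 1.47-fold and 1.43-fold between the libraries labelled KD plus CAPN2 and KD. In the same comparison POLE, the catalytic subunit of polymerase epsilon, fell 1.48-fold and POLE3, its histone-fold subunit, 1.95-fold. POLA1, POLD1, POLD2, POLD3 and POLE3 were also lower in the libraries labelled KD than in control. Of those calls, POLA1 passed under all 13 alternatives, POLD1 did not after correction for GC content and length, and POLD3, POLD2 and POLE3 did not under 10, 7 and 7 of them. The log2 fold change of POLD2 there was -0.06 after that correction and -0.16 without the second library labelled KD.

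PCNA and its loader were lower in the libraries labelled KD plus CAPN2 than in those labelled KD in all 6 genes, though not to the same extent. PCNA (ENSG00000132646, GRCh38 chromosome 20, 5114953 to 5126626, minus strand), the sliding clamp, had 58.0, 59.0 and 53.1 CPM in the libraries labelled KD plus CAPN2, 173, 177 and 212 CPM in those labelled KD, and 205, 210 and 203 CPM in control. It was low in each library labelled KD plus CAPN2 and fell 3.31-fold against those labelled KD (log2 -1.72 ± 0.095, edgeR's adjusted p = 5.97e-11). RFC2, a small subunit of the loader, had 25.9, 25.2 and 28.1 CPM in the libraries labelled KD plus CAPN2, 60.5, 69.0 and 83.7 CPM in those labelled KD, and 59.7, 60.4 and 62.7 CPM in control. The third library labelled KD was the highest of all 9, and the fall between the libraries labelled KD plus CAPN2 and KD was 2.69-fold (log2 -1.43 ± 0.113, edgeR's adjusted p = 8.19e-09). RFC3, RFC4 and RFC5, the other small subunits, fell 2.34-fold, 2.13-fold and 2.27-fold in that comparison. RFC5 was higher in the libraries labelled KD than in control (log2 0.25 ± 0.094, edgeR's adjusted p = 0.0419), and this did not pass without the third library labelled KD, without any 1 control library, without a filter or with the replicate block (range of adjusted p 0.0184 to 0.206).

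RFC1, the large subunit that makes the loader specific for PCNA, had 91.7, 76.7 and 83.1 CPM in the libraries labelled KD plus CAPN2, 101, 102 and 93.5 CPM in those labelled KD, and 91.1, 85.2 and 99.0 CPM in control. Its groups lay close together. The log2 fold change between the libraries labelled KD plus CAPN2 and KD was -0.24 ± 0.094 (95% interval -0.44 to -0.04, edgeR's adjusted p = 0.0421), outside the intervals of RFC2, RFC3, RFC4 and RFC5, of which the nearest bound was -0.88. It did not pass with upper-quartile factors, with the replicate block, in the compared groups alone, or without replicate 2 or 3 of the libraries labelled KD plus CAPN2 or the first labelled KD (range of adjusted p 0.00443 to 0.203). Per kilobase, the level of RFC1 over that of RFC4 was 1.46 ± 0.133 in the libraries labelled KD plus CAPN2, 0.814 ± 0.0983 in those labelled KD and 0.867 ± 0.0484 in control. The small subunits also serve in other loaders, which have their own large subunits.

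**Figure D5:**
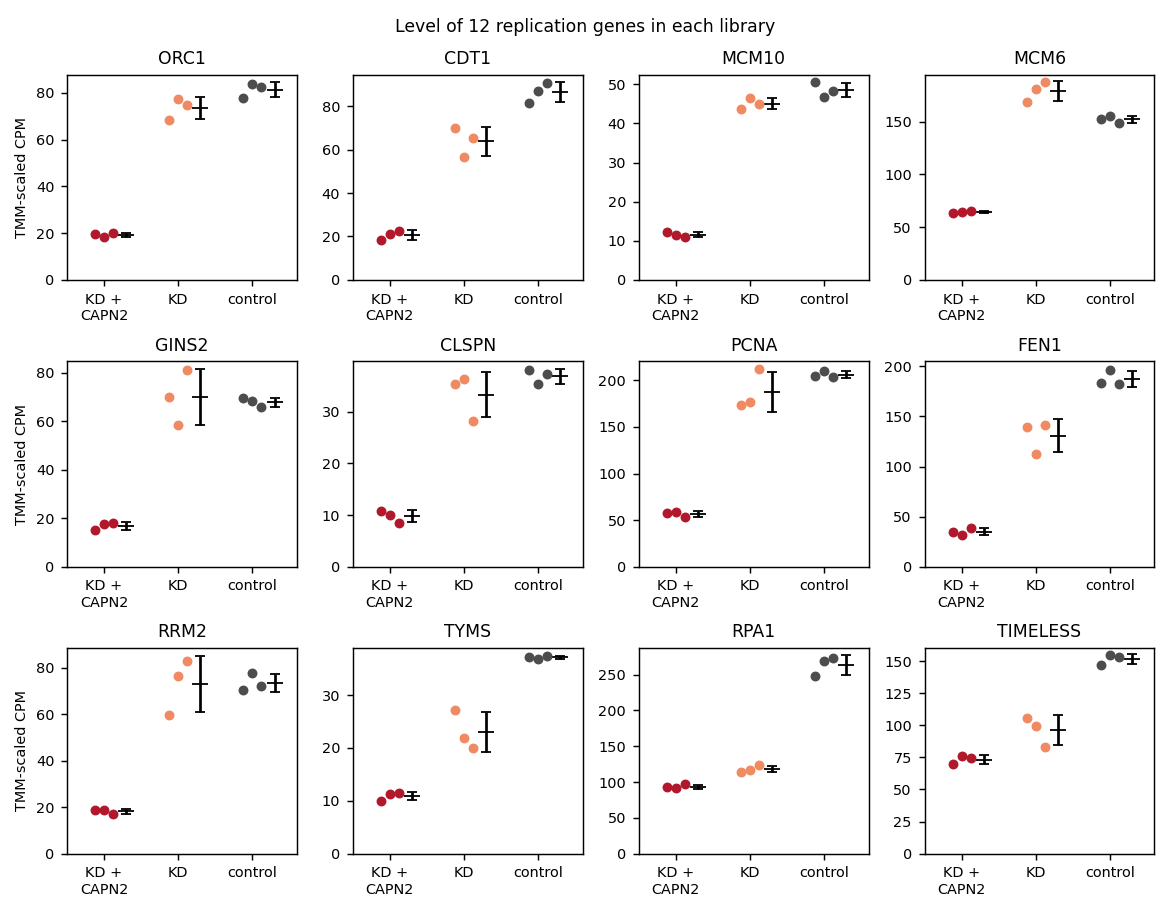
TMM-scaled CPM of 12 of the genes in each library (points), with mean and SD beside them, for the libraries labelled KD plus CAPN2 (KD + CAPN2), labelled KD and control. In the first 9 panels the step lies mainly between the libraries labelled KD plus CAPN2 and the rest, while RPA1 and TIMELESS have their larger step between the libraries labelled KD and control.

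The lagging-strand processing genes FEN1, LIG1 and DNA2 were all lower in the libraries labelled KD plus CAPN2 than in those labelled KD. FEN1 (ENSG00000168496, GRCh38 chromosome 11, 61792637 to 61797244, plus strand), the flap endonuclease that trims Okazaki fragments, had 34.4, 32.0 and 38.4 CPM in the libraries labelled KD plus CAPN2, 139, 112 and 141 CPM in those labelled KD, and 184, 197 and 182 CPM in control. None of its groups overlapped. The fall was 3.74-fold between the libraries labelled KD plus CAPN2 and KD (log2 -1.90 ± 0.105, edgeR's adjusted p = 6.37e-11), 5.37-fold between those labelled KD plus CAPN2 and control, the largest of the 59 genes there, and 1.43-fold between those labelled KD and control (log2 -0.52 ± 0.099, adjusted p = 0.000489). TMEM258 on the other strand shares 166 exon bases with FEN1 and had 37.1% of its counts.

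LIG1, the ligase that seals Okazaki fragments, had 15.2, 12.8 and 17.4 CPM in the libraries labelled KD plus CAPN2, 46.5, 37.5 and 42.7 CPM in those labelled KD, and 51.7, 53.9 and 52.0 CPM in control. All groups were apart, with a fall of 2.79-fold between the libraries labelled KD plus CAPN2 and KD (log2 -1.48 ± 0.12, edgeR's adjusted p = 1.13e-08). DNA2, the nuclease and helicase that cuts long flaps, had 27.7, 26.4 and 20.8 CPM in the libraries labelled KD plus CAPN2, 27.03, 37.6 and 36.0 CPM in those labelled KD, and 33.0, 26.1 and 31.4 CPM in control. Of the 55 genes called lower between the libraries labelled KD plus CAPN2 and KD it was the 1 whose libraries overlapped (log2 -0.43 ± 0.138, edgeR's adjusted p = 0.0152). It did not pass without the third library labelled KD plus CAPN2 or the third labelled KD (range of adjusted p 0.000169 to 0.0865).

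RPA, the complex that coats single-stranded DNA at the fork, had genes that moved in different comparisons. RPA1 (ENSG00000132383, GRCh38 chromosome 17, 1829702 to 1900082, plus strand), the large DNA-binding subunit, had 93.0, 91.2 and 96.7 CPM in the libraries labelled KD plus CAPN2, 114, 117 and 123 CPM in those labelled KD, and 248, 269 and 274 CPM in control. Both sets of libraries with a knockdown label were far under control, and close to each other. SMYD4 on the other strand shares 156 exon bases with RPA1 and had 22.2% of its counts. The fall of RPA1 between the libraries labelled KD and control was 2.23-fold (log2 -1.16 ± 0.083, edgeR's adjusted p = 5.3e-09), and that between the libraries labelled KD plus CAPN2 and KD was 1.26-fold (log2 -0.34 ± 0.083, adjusted p = 0.00233).

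RPA2, the middle subunit, had 25.2, 27.2 and 23.0 CPM in the libraries labelled KD plus CAPN2, 50.6, 50.02 and 62.9 CPM in those labelled KD, and 65.5, 67.1 and 64.0 CPM in control. It was lowest under the label KD plus CAPN2, with a fall of 2.16-fold against the libraries labelled KD (log2 -1.11 ± 0.109, edgeR's adjusted p = 1.25e-07), and did not pass between those labelled KD and control (log2 -0.27, adjusted p = 0.0549). RPA3, the small subunit, had 26.3, 25.9 and 23.2 CPM in the libraries labelled KD plus CAPN2, 37.3, 45.4 and 60.7 CPM in those labelled KD, and 37.2, 41.9 and 40.3 CPM in control. The third library labelled KD was the highest, and the fall between the libraries labelled KD plus CAPN2 and KD was 1.90-fold (log2 -0.93 ± 0.138, edgeR's adjusted p = 1.87e-05). Per kilobase, the level of RPA1 over that of RPA2 was 1.38 ± 0.158 in the libraries labelled KD plus CAPN2, 0.804 ± 0.0748 in those labelled KD and 1.48 ± 0.0915 in control. The libraries labelled KD were the lowest on this ratio and did not overlap the others. The summed level of the 3 genes in the libraries labelled KD was 59.8% of that in control, the lowest share of the 10 roles.

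The genes that supply deoxynucleotides fell to the lowest share of any role between the libraries labelled KD plus CAPN2 and KD. Their summed level was 265 ± 4.39 CPM in the libraries labelled KD plus CAPN2, 799 ± 88.9 CPM in those labelled KD and 916 ± 35.5 CPM in control (SD, n = 3 each), and all 5 genes passed. RRM2 (ENSG00000171848, GRCh38 chromosome 2, 10120698 to 10131419, plus strand), the S-phase subunit of ribonucleotide reductase, had 18.9, 18.8 and 16.9 CPM in the libraries labelled KD plus CAPN2, 59.5, 76.2 and 83.0 CPM in those labelled KD, and 70.2, 77.7 and 72.3 CPM in control. Those labelled KD overlapped control, and both were far above those labelled KD plus CAPN2. The fall against the libraries labelled KD was 4.0-fold (log2 -2.00 ± 0.12, edgeR's adjusted p = 1.79e-10). RRM1, the large subunit of the same enzyme, fell 2.92-fold. Per kilobase, RRM2 over RRM1 was 0.233 ± 0.0101 in the libraries labelled KD plus CAPN2, 0.317 ± 0.0175 in those labelled KD and 0.327 ± 0.0141 in control.

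DUT, the dUTPase that keeps uracil out of DNA, had 42.3, 43.0 and 44.1 CPM in the libraries labelled KD plus CAPN2, 147, 127 and 171 CPM in those labelled KD, and 158, 171 and 154 CPM in control. It fell 3.44-fold between the libraries labelled KD plus CAPN2 and KD (log2 -1.78 ± 0.104, edgeR's adjusted p = 1.26e-10), without overlap. TK1, the thymidine kinase of the salvage route and the gene with the highest level per kilobase in each group, fell 2.85-fold in that comparison and 1.25-fold between the libraries labelled KD and control, where the call was lost after correction for GC content and length and without control replicate 2. TYMS, thymidylate synthase, had 10.0, 11.2 and 11.6 CPM in the libraries labelled KD plus CAPN2, 27.3, 21.9 and 19.98 CPM in those labelled KD, and 37.3, 36.9 and 37.5 CPM in control. The groups stepped up in that order without overlap, by log2 fold changes of -1.08 ± 0.127 between the libraries labelled KD plus CAPN2 and KD (edgeR's adjusted p = 1.24e-06) and -0.69 ± 0.118 between those labelled KD and control (adjusted p = 0.000184). Its values are uncertain to the extent that ENOSF1, on the other strand, covers 39.1% of its exon bases and had several times its counts.

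The 4 genes that rebuild chromatin behind the fork or process histone messages were all lower in the libraries labelled KD plus CAPN2 than in those labelled KD. CHAF1A, the large subunit of the histone chaperone CAF-1, had 19.2, 21.4 and 21.5 CPM in the libraries labelled KD plus CAPN2, 70.4, 57.2 and 57.9 CPM in those labelled KD, and 83.4, 79.0 and 81.9 CPM in control. UHRF1, which brings the maintenance DNA methyltransferase to newly copied DNA, had 48.5, 50.6 and 56.1 CPM in the libraries labelled KD plus CAPN2, 164, 147 and 147 CPM in those labelled KD, and 180, 186 and 180 CPM in control. Neither gene had groups that overlapped, and both fell about as far. CHAF1A fell by 1.58 on the log2 scale between the libraries labelled KD plus CAPN2 and KD, with an SE of 0.106 (edgeR's adjusted p = 7.99e-10). UHRF1 fell by 1.56 with an SE of 0.09 (edgeR's adjusted p = 1.14e-10). CHAF1B, the partner of CHAF1A, fell 2.498-fold and SLBP, which binds the stem-loop of replication-dependent histone messages, 2.26-fold. MORC3 on the same strand shares 89 exon bases with CHAF1B and had 141.5% of its counts. CHAF1A, CHAF1B and UHRF1 were also lower in the libraries labelled KD than in control, by log2 fold changes of -0.40, -0.28 and -0.25. Of 13 alternatives, the call of CHAF1B did not pass under 11, DESeq2 among them, that of UHRF1 under 10, and that of CHAF1A after correction for GC content and length.

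Promoter sequence was set beside these changes because many of the genes fell together. RefSeq start sites on GRCh38.p14 gave windows of 300 bases, 250 before the start and 50 from it, for 52 of the 59 genes. The E2F words searched on both strands were TTTCGCGC, TTTGGCGC, TTTCCCGC and TTTGCCGC, of which a word and the reverse of another can overlap. At least 1 was found for 25 of the 52 genes (48.1%), for 6.51% of the 10947 tested genes with a window, and in 3.31% of all 35116 windows. CCAAT was found for 57.7% of the 52 genes and 42.8% of the tested genes with a window, and in 34.6% of all windows. The CHR words TTTGAA and TTCGAA, named for the cell cycle genes homology region of mitotic promoters, were found for 9.62% of the 52 genes and 15.6% of the tested genes with a window, and in 16.4% of all windows. The median log2 fold change between the libraries labelled KD plus CAPN2 and KD was -1.24 for the genes with an E2F word and -1.16 for those without, over ranges that overlapped. A match of letters is a description and not a measured binding site.

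The following windows run from 250 bases before the start to 30 bases from it, 5′ to 3′ on the strand of the gene, with E2F words in capitals. GINS2, DUT, CLSPN and PCNA are shown as the genes with an E2F word that fell most between the libraries labelled KD plus CAPN2 and KD, MCM6 as the gene with the most words, and ORC3 and ORC4 as genes that did not pass. They were chosen after their values were seen. RRM2, MCM10, ORC1 and FEN1, with log2 fold changes of -2.00, -1.96, -1.93 and -1.90, fell more than DUT, CLSPN and PCNA. None of their windows holds an E2F word, so they are not shown.
GINS2 (chr16:85688925-85689204, minus strand): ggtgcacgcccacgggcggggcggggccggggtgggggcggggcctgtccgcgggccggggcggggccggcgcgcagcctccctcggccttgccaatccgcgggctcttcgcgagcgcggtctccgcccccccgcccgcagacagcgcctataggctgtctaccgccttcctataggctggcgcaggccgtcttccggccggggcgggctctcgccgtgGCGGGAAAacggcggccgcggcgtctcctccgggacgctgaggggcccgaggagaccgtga
DUT (chr15:48331947-48332226, plus strand): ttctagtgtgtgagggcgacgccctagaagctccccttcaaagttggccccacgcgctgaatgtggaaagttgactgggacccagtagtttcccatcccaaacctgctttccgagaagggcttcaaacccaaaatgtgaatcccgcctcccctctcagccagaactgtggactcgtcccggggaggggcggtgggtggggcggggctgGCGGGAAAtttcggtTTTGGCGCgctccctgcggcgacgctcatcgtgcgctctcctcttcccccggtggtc
CLSPN (chr1:35769949-35770228, minus strand): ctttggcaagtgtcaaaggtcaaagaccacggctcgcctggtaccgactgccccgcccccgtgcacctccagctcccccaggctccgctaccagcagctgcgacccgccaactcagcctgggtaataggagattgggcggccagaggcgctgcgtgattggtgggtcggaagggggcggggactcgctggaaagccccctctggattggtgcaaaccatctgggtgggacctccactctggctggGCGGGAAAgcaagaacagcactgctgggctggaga
PCNA (chr20:5126593-5126872, minus strand): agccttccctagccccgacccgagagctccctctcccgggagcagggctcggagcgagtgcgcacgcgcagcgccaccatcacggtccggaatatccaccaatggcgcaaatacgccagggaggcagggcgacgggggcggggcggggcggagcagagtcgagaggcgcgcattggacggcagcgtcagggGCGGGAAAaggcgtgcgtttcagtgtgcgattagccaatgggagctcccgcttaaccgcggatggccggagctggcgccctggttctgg
MCM6 (chr2:135876414-135876693, minus strand): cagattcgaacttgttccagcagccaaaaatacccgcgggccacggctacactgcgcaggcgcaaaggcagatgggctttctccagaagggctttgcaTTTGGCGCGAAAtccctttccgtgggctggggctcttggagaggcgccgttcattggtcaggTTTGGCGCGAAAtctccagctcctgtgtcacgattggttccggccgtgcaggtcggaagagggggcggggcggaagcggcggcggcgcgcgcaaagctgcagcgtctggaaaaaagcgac
ORC3 (chr6:87589885-87590164, plus strand): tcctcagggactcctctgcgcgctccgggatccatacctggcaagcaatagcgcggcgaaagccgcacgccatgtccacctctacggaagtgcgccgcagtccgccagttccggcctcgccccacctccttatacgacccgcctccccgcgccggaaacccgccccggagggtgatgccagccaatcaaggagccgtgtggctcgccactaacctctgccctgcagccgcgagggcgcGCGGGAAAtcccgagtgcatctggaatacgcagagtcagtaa
ORC4 (chr2:148020708-148020987, minus strand): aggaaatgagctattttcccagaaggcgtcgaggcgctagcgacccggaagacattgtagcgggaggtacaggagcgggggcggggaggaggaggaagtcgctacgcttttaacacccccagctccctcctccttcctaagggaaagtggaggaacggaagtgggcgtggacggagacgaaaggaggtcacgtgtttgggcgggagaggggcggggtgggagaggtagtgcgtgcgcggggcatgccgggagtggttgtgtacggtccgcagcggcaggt
Counted from its first printed base, the word nearest to the start lies 5 bases before it in CLSPN, 12 in ORC3, 27 in DUT and 31 in GINS2. The word in CLSPN therefore runs across the start. In MCM6 there are 4 words, as pairs that overlap on opposite strands. ORC3 holds a word and did not pass, and ORC4 holds none in this window.

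Genes of the same pathway outside the 59 moved less uniformly. Of 40 other replication genes, 25 were lower and 4 higher in the libraries labelled KD plus CAPN2 than in those labelled KD, with a median log2 fold change of -0.45. Of all genes tested, 25.6% were called lower and 23.7% higher in that comparison. DSCC1, a subunit of the CTF18 clamp loader, fell by 1.83 on the log2 scale. RIF1, which delays the firing of late origins, had 183, 176 and 154 CPM in the libraries labelled KD plus CAPN2, 85.0, 103 and 76.6 CPM in those labelled KD, and 81.2, 58.6 and 77.3 CPM in control. It rose 1.94-fold against the libraries labelled KD (log2 0.96 ± 0.123, edgeR's adjusted p = 3.33e-06) and did not overlap them. RRM2B, the ribonucleotide reductase subunit induced by p53, rose by 0.34 ± 0.104 on the log2 scale (adjusted p = 0.0104), where RRM2 fell by 2.00. LIG3 and ASF1A were the other genes higher in this list, both named after their values were seen.

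Of 28 regulators of the G1/S transition, 18 were lower and 2 higher in the libraries labelled KD plus CAPN2 than in those labelled KD, with a median of -0.66. The shares over all genes tested were 25.6% lower and 23.7% higher. MYBL2, an S-phase transcription factor, fell by 1.81 and CDC25A, the phosphatase that activates CDK2, by 1.86 on the log2 scale. CCND2, cyclin D2, rose by 0.89 and RBL2, a pocket protein that represses E2F targets in resting cells, by 0.50. Of 20 mitotic genes, 16 were lower and 3 higher in the same comparison, against the same shares of all genes tested. Their median was -0.62, a smaller fall than the -1.18 of the 59 genes, and no test was made of that difference. BIRC5, survivin, and CDC20, the activator of the anaphase-promoting complex, fell by 1.28 and 0.98 on the log2 scale. CENPE, a kinetochore motor, and CENPF, a kinetochore protein, went the other way, with rises of 2.84 ± 0.145 and 2.09 ± 0.149 (edgeR's adjusted p = 2.1e-11 and 7.88e-09). Between the libraries labelled KD and control, 18 of the 20 mitotic genes were lower at an adjusted p under 0.05 in edgeR, with a median of -0.62, where the 59 genes had -0.14. None of the 20 was higher, which also held at an unadjusted p under 0.05 and in DESeq2. In that comparison 16 of the 40 other replication genes were lower and 4 higher, and 11 of the 28 G1/S regulators were lower and 2 higher, against 18.5% lower and 16% higher of all genes tested.

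The 59 genes lie on 22 chromosomes, and their median deposited gene length of 4299 bases was close to the 4345 bases of all genes tested. Their median GC content was 45.8%, against 48.1% for all genes tested. Across the 59 genes, the log2 fold change went with GC content at a Spearman correlation of -0.43 for the libraries labelled KD plus CAPN2 against KD, -0.58 for those labelled KD plus CAPN2 against control and -0.56 for those labelled KD against control. Over all genes tested these were -0.08, -0.29 and -0.36. Genes are not independent replicates and share their libraries, so these correlations are descriptions, and the part of GC content in the results was not tested beyond the correction. After that correction the median log2 fold change of the 59 genes was -0.95 between the libraries labelled KD plus CAPN2 and KD and -1.10 between those labelled KD plus CAPN2 and control, with 56 and 57 genes lower. The medians over all 16812 genes tested were then 0.07 and 0.12. Calls over all genes tested rose from 8278 to 9145 and from 9468 to 10016. Between the libraries labelled KD and control 20 genes were lower with and without the correction, but 11 of them were the same genes, and the 9 that did not pass after it were CDT1, MCM2, MCM7, POLD1, POLD2, LIG1, TK1, CHAF1A and UHRF1. There 6175 of all genes tested were called with the correction and 5812 without it.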

How the data were processed

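RNA of 9 FaDu cultures was measured by bulk RNA sequencing, from TRIzol extracts and libraries made with a NEBNext Ultra kit, per the labels' protocols. The authors deposited 1 table of raw read counts per gene, as whole numbers without normalization, with a gene length column. HISAT2 2.0.5, StringTie 1.3.3b, featureCounts 1.5.0-p3 and the build hg19 are named, without roles, per the submitters' processing notes. The table's coordinates were those of GENCODE v29 on GRCh38 for 58735 of 58735 genes, and GRCh38 positions are used. How strand and overlapping genes were treated in counting is not given in the sources used here. Of the 59 genes, 13 share exon bases with a gene that had at least 10% of their counts.

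The deposited counts were fitted with edgeR 4.0.16 (R 4.3.3): filterByExpr (at least 10 counts, by group), which kept 16812 genes and all 59 replication genes, TMM factors, 1 term per group over all 9 libraries, robust dispersion, and the quasi-likelihood F test for 3 contrasts with Benjamini-Hochberg adjustment. A gene was called at an adjusted p under 0.05. SE is the absolute log2 fold change over the square root of F, and intervals are at 95%. The steps were tested on simulated counts. At these depths 3 counts corresponded to 0.152 to 0.198 CPM, for counting error only. Levels per kilobase are CPM over the deposited gene length, which equals the combined length of all annotated exons for each of the 59 genes. That length can exceed the transcripts expressed, so rankings and ratios of different genes per kilobase depend on annotation. Full values are given for the 2 genes of each role with the largest change between the libraries labelled KD plus CAPN2 and KD, for genes called between those labelled KD and control with an absolute log2 fold change of at least 0.5, and for those said to be exceptions. From each list of other genes up to 2 higher and 2 lower with the lowest adjusted p are named. Of these, 1 gene is not reported here. The 59 genes, the other lists and the tests were chosen with earlier results of these data known. Motifs and printed promoters were chosen after the values were seen. Alternatives were upper-quartile factors, DESeq2 size factors, no filter, a replicate block, a correction for GC content and length by splines with 5 degrees of freedom, the compared groups alone, DESeq2 1.42.0, and leaving out each library.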

Additional observations from a re-analysis of the deposited data

How the results depend on the processing

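Under 7 alternatives and 9 fits that each left out 1 library, 0 calls reversed. No paired samples were found: deviations of same-numbered libraries correlated between -0.111 and 0.063, with 0 of 9 pairs over 0.1, and the replicate block gave 54 lower genes between the libraries labelled KD plus CAPN2 and KD, 55 between those labelled KD plus CAPN2 and control, and 17 lower and 1 higher between those labelled KD and control. Over all 16812 genes tested the block called 7912, 9149 and 5376 in these comparisons, against 8278, 9468 and 5812 in the main fit.

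Between the libraries labelled KD plus CAPN2 and KD, 53 of 55 calls were kept under every alternative, the exceptions being RFC1 and DNA2, and DBF4 and ORC5 passed without a filter or without the first library of either group. The median of the 59 genes was -1.12 with upper-quartile factors, -1.21 without a filter and -0.95 after the GC and length correction. Leaving out 1 library gave 53 to 57 lower genes, 0 higher and a median of -1.22 to -1.13. Calls over all genes tested were then 7071 to 8478, against 8278 in the main fit. Against control, 54 of 56 calls were kept, the exceptions being ORC4 and ORC5. The median was -1.16 with upper-quartile factors, which moved the median of all genes from 0.02 to 0.13, and -1.10 after the GC and length correction, which left 0 higher genes. Leaving out 1 library gave 54 to 56 lower genes, 1 higher and a median of -1.28 to -1.25. Over all genes tested 8317 to 8883 were then called, against 9468 in the main fit.

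Between the libraries labelled KD and control, 7 of 23 calls were kept under every alternative. Higher genes numbered 5 with upper-quartile factors (15 lower), 1 without a filter and 1 with the replicate block, and lower genes 13 in the compared groups alone. These fits called, in that order, 5815 of 16812, 5640 of 34991, 5376 of 16812 and 5068 of 15922 genes tested. Leaving out 1 library gave 0 to 9 higher genes, 11 to 21 lower genes and a median of -0.15 to -0.08, with 9 higher without the first library labelled KD, 1 without control replicate 1 or 3, and 0 higher and 11 lower without control replicate 2. Calls over all genes tested moved too, from 5812 in the main fit to 6427 without the first library labelled KD. They were 4823, 4288 and 4568 without control replicate 1, 2 and 3. The causes were not tested.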
